A study of Mus musculus with 2 samples.

Results

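Kinesins are motor proteins that hydrolyse ATP to move along microtubules or, in some families, to take microtubule ends apart. One set builds and runs the mitotic spindle and the cleavage of dividing cells, and its genes are transcribed mainly in the G2 and M phases of the cell cycle. Another set carries vesicles, lysosomes, mitochondria and RNA through the cytoplasm at all times. In osteoclasts, which form by fusion of macrophage precursors that have left the cell cycle, such transport is tied to the delivery of lysosomes to the bone-facing membrane.

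The kinesin genes were taken as every row of the count table whose symbol starts with Kif followed by a digit, which gave 30 of 18987 genes. By known role, 11 of them were placed in mitosis, 13 in cargo transport and 6 in neither group (mostly cilium, centriole or microtubule-end functions). Kif21a and Kif21b, which slow microtubule growth, were counted with cargo transport. A further 9 mouse kinesin symbols (Kif1a, Kif2b, Kif5c, Kif6, Kif12, Kif19a, Kif19b, Kif26a and Kif28) are not analysed here, since the table listed only genes with a count in both libraries. Of the 30 genes, 26 passed the filter of a mean of 1 CPM (counts relative to the TMM-scaled library size) over both libraries. The others were Kif9, Kif17, Kif26b and Kif27.

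The 2 libraries came from RAW264.7 cells, a mouse macrophage-like line that forms osteoclast-like cells in response to RANKL. One culture carried a control shRNA and the other an shRNA against Cpeb4, the gene of an RNA-binding protein that acts on the poly(A) tails of messenger RNAs. Both had been seeded at 7500 cells per cm2, both were given 100 ng/ml RANKL 24 h later, and the series title gives day 3 after stimulation. The labels do not say whether either line was a clone or a pool, and name no shRNA sequence. The library with the Cpeb4 shRNA is called the knockdown library below. Each group was 1 library, so no test was possible, and every difference below is one between 2 libraries with no replicate check.

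The control library held 79399680 counts and the knockdown library 119350322, a ratio of 1.503. Cpeb4 itself was at 345 CPM with the control shRNA and at 104 CPM with its own shRNA (log2 ratio -1.73), in the direction of the label. Of 8 fixed macrophage markers 7 were listed and 5 passed the filter, with a median log2 ratio of -0.44. Csf1r (2736 and 1790 CPM), Cd68 (1174 and 570 CPM, log2 ratio -1.04), Itgam (52.8 and 38.8 CPM) and Ptprc (173 and 157 CPM) were lower in the knockdown library, and Lyz2 (5.71 and 11.4 CPM) was higher. Under the filter, Adgre1, the F4/80 gene, had 12 and 101 counts and Fcgr1 had 88 and 19, and Mertk is not analysed here. Lymphoid markers were represented by Cd79a at 0.10 CPM in both libraries, and the fibroblast markers Dcn and Pdgfra did not exceed 0.73 CPM in either. All 8 osteoclast markers lay below the control by 2-fold or more in the knockdown library (median log2 ratio -2.39), as did 11.8% of all genes past the filter. The part of either marker list in the kinesin differences was not tested.

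The kinesin genes split by role. All 11 mitotic kinesins were higher in the knockdown library, with a median log2 ratio of 4.45, a 21.8-fold difference. The 12 transport kinesins past the filter had a median of -0.29, and their log2 ratios ranged from -1.24 to 0.80. Of the 26 kinesins past the filter, 12 were 2-fold or more higher and 2 were 2-fold or more lower. The same held for 14.6% (higher) and 11.8% (lower) of the 12086 genes past the filter, whose median log2 ratio was 0.051. Without the filter, 13 of the 30 kinesins were at least 2-fold higher and 2 lower, beside 16.9% and 15.4% of all 18987 genes. Roles were assigned with earlier results of these data known, and Kif2a, which acts at spindle poles as well as in interphase, was placed outside both groups (20.97 and 38.5 CPM, log2 ratio 0.88). Counting it as mitotic, an alternative chosen after seeing the data, would give 11 of 12 genes at least 4-fold higher and a median of 4.37. In bulk RNA, more cells that express a gene and more RNA per cell cannot be told apart.

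**Figure D1:**
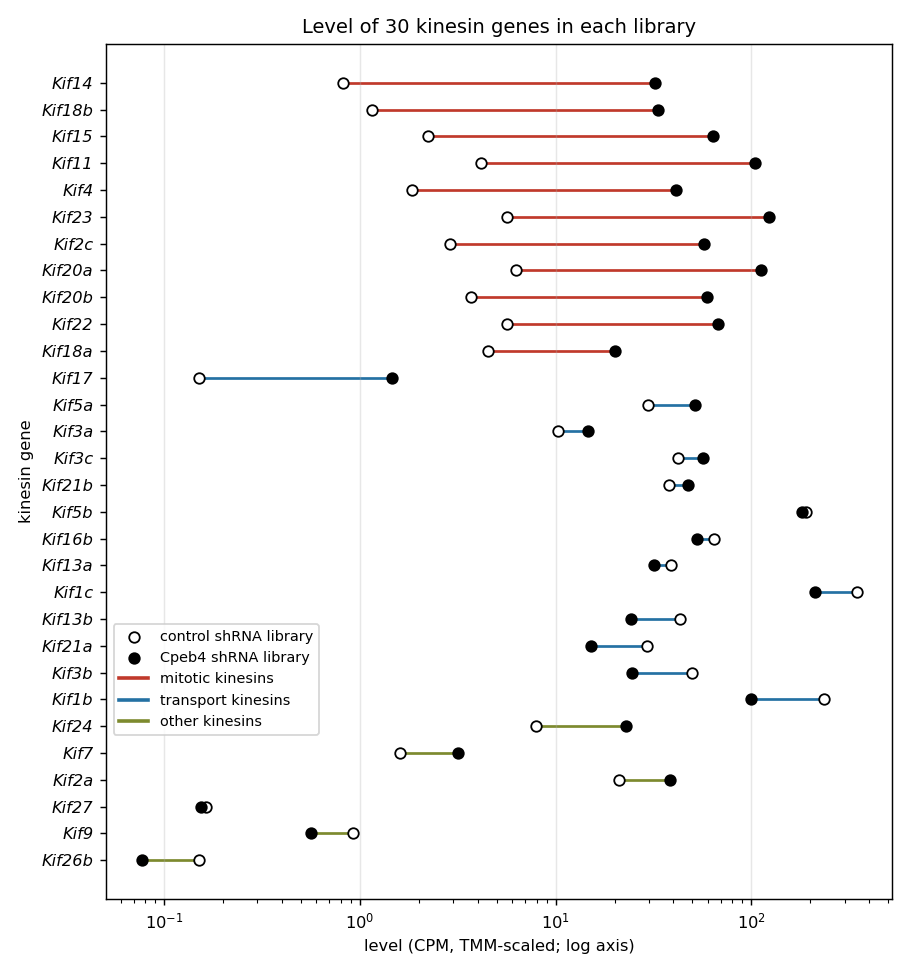
Level of the 30 kinesin genes in the control (open circles) and the knockdown library (filled circles), in TMM-scaled CPM on a log axis, with line colour giving the role. The 11 mitotic kinesins lie between 0.82 and 6.27 CPM in the control library and between 20.2 and 123 CPM after knockdown, while the 12 transport kinesins past the filter have log2 ratios of -1.24 to 0.80. Kif17, a transport kinesin under the filter with 11 and 188 counts, is the exception at 3.27.

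The levels of the mitotic kinesins ran from 0.82 to 6.27 CPM in the control and from 20.2 to 123 CPM in the knockdown, so the 2 ranges did not overlap. With Kif2a among them they would, since its control level of 20.97 CPM lies above the 20.2 CPM of Kif18a in the knockdown. All 11 were at least 4-fold higher, which held for 4.82% of all genes past the filter, and 9 were at least 16-fold higher, which held for 1.27%. Kif14 was the member that passed the filter through its high library alone, with 0.82 CPM in the control library.

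Among motors that set up the bipolar spindle, Kif11 (chromosome 19, 37376403 to 37421859 in GRCm38) stood at 306 counts (4.18 CPM) in the control and at 13475 counts (104 CPM) in the knockdown. KIF11, also called Eg5, is the tetrameric motor that slides antiparallel spindle microtubules apart. Its log2 ratio was 4.64 (95% counting interval 4.48 to 4.81). Kif15, whose product can keep spindle poles apart alongside KIF11, had 164 and 8235 counts and a ratio of 4.83 (4.61 to 5.06). The intervals of these genes cover counting error only, take the counts as read tallies and overlapped each other.

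The chromokinesins, which bind chromosome arms, were higher too. Kif4, whose product also sets the length of the central spindle together with PRC1, had 135 and 5335 counts (log2 ratio 4.48, interval 4.24 to 4.74). Its exons overlap those of Pdzd11 on the opposite strand, which had 2792 and 2415 counts and a ratio of -1.03. Kif22, the gene of the motor known as Kid, had 413 and 8774 counts and a smaller ratio of 3.59 (3.45 to 3.73), outside the interval of Kif4.

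Kinesins of the central spindle and of cytokinesis held the mitotic members with the highest and the lowest level per kb of exon in the control. These were Kif20a (1.44 CPM per kb) and Kif14 (0.079). Kif23, whose product forms the centralspindlin complex with RACGAP1, had 412 and 15891 counts, or 5.63 and 123 CPM, with a ratio of 4.45 (4.31 to 4.59). Racgap1 itself had 626 and 14386 counts, with a ratio of 3.70. Kif20a, whose product brings the chromosomal passenger complex to the midzone, had 459 and 14513 counts (4.16, interval 4.03 to 4.30). Per kb of exon, these were the 2 highest mitotic kinesins in the knockdown library, at 15.5 (Kif23) and 25.9 CPM per kb (Kif20a). Kif20b, the kinesin-6 relative that acts in abscission, had 270 and 7677 counts and a ratio of 4.01. Kif14, which recruits citron kinase to the midbody, had 60 and 4183 counts, and its ratio of 5.30 (4.94 to 5.70) was the highest of the kinesins. That interval overlapped those of Kif18b (4.54 to 5.17) and Kif15 (4.61 to 5.06). With a pseudocount of 0.5 CPM the Kif14 ratio was 4.64, beside 4.55 for Kif15. The exons of Kif20a overlap those of Cdc23 on the opposite strand, which had 2858 and 8084 counts (0.68).

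The mitotic motors that act on microtubule ends had the widest spread. Kif18b, which shortens astral microtubules, had 85 and 4317 counts (log2 ratio 4.85, interval 4.54 to 5.17). Kif2c, the gene of the centromeric depolymerase MCAK, had 212 and 7384 counts (4.30, interval 4.10 to 4.51). Kif18a, which damps chromosome movements at the metaphase plate, had 330 and 2616 counts and a ratio of 2.17 (2.0 to 2.34), a 4.49-fold difference. It was the lowest of the 11, and its interval did not reach that of Kif22, the next one up. Per kb of exon its level was 0.458 CPM in the control, above that of 4 other mitotic kinesins, and 2.06 in the knockdown, the lowest of them. Its exons overlap those of Mettl15, with 526 and 760 counts (-0.29), on the opposite strand. Since the sources used here do not state whether strand was used, reads of Kif18a and Mettl15 cannot be told apart where they overlap, and the same holds for Kif4 with Pdzd11, Kif20a with Cdc23 and Kif2a with Dimt1. The ratios of these 4 kinesins are uncertain to that extent. Exons of Kif22 (with Gm31749), Kif3c (with 1110002L01Rik and Gm48512) and Kif5b (with AC113003.1 and Gm17036) also overlap opposite-strand genes. The counts of those genes were not examined, so the Kif22, Kif3c and Kif5b ratios carry the same limit.

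**Figure D2:**
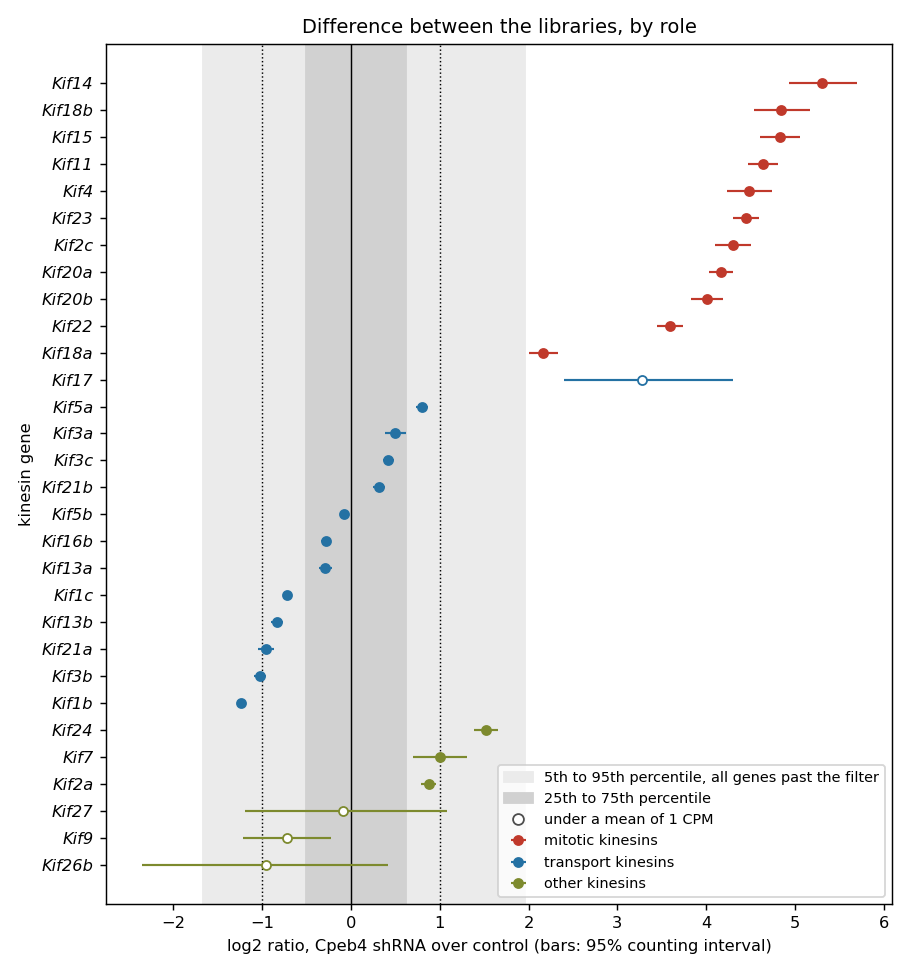
Log2 ratio of the knockdown library over the control library for each kinesin gene, with the 95% counting interval as a bar and open symbols for genes under a mean of 1 CPM. Grey bands give the central ranges of all genes past the filter and dotted lines mark 2-fold. The mitotic kinesins lie at 2.17 to 5.30, and the transport kinesins past the filter between -1.24 and 0.80.

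Genes of G2 and M phase often carry, close to the transcript start, a cell cycle genes homology region (CHR), the element through which the DREAM and MMB complexes act, and a CCAAT box, the element bound by NF-Y. RefSeq promoter windows of 300 bases (250 before to 50 after the start, build GRCm38.p6) were found for 25 of the 30 kinesins, Kif5a, Kif5b, Kif13b, Kif20a and Kif21b being without one. The stretches printed here run from 120 bases before the start to 29 after it. They are the 6 mitotic kinesins with the highest lower interval limits among those with a window, Kif18a as the lowest mitotic member, and Kif1c as the transport kinesin with the highest level per kb of exon. Capitals mark matches on either strand to a CHR (TTTGAA or TTTAAA, read as TTCAAA on the other strand), a CCAAT box (CCAAT or ATTGG) or an E2F motif (TTCCCGC or TTGGCGC, read as GCGGGAA or GCGCCAA).
Kif14 (GRCm38.p6 chr1:136467728-136467877, plus strand): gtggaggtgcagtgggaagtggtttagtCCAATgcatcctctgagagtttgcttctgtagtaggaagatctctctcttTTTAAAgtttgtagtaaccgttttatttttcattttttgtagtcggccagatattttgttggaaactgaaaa
Kif15 (GRCm38.p6 chr9:122950961-122951110, plus strand): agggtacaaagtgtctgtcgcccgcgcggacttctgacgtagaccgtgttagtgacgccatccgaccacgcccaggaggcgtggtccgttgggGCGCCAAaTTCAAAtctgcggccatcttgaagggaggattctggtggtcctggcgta
Kif18b (GRCm38.p6 chr11:102925095-102925244, minus strand): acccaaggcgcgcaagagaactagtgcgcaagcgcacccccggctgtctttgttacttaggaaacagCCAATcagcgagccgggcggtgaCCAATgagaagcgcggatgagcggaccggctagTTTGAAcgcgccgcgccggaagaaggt
Kif11 (GRCm38.p6 chr19:37376262-37376411, plus strand): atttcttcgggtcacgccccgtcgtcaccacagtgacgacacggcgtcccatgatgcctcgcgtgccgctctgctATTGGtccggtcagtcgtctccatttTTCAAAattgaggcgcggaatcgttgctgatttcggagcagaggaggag
Kif23 (GRCm38.p6 chr9:61946770-61946919, minus strand): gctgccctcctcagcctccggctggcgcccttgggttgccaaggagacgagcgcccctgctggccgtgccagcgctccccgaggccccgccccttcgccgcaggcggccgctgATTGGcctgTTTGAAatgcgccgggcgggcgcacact
Kif4 (GRCm38.p6 chrX:100625945-100626094, plus strand): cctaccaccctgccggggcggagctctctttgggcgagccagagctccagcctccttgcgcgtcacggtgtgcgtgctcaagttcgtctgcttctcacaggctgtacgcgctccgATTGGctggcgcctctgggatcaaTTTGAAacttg
Kif18a (GRCm38.p6 chr2:109280618-109280767, plus strand): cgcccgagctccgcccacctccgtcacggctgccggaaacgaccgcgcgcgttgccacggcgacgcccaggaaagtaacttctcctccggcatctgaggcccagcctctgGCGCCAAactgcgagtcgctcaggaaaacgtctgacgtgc
Kif1c (GRCm38.p6 chr11:70700428-70700577, plus strand): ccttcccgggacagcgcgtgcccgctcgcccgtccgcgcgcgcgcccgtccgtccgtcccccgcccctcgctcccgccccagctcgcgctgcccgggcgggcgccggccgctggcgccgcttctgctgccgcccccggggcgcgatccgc

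A CHR match was present in 9 of 10 mitotic kinesins with a window, and in 0 of 9 transport kinesins, counting each gene once. Of the 6 others, Kif26b and Kif27 had one. Over all 32851 windows the share was 27.6%, and over the 11175 windows of genes past the filter 19.5%. Within 50 bases of the start, 8 of the 10 mitotic kinesins had a match, against 5.05% of windows of genes past the filter. This narrower range was chosen after the positions had been seen. The match nearest to the start began at -19 in Kif11 and Kif15, -17 in Kif22, 2 in Kif23, 3 in Kif18b, 7 in Kif20b, 19 in Kif4 and -42 in Kif14, with the start base as 0. In Kif2c it lay farther out, at -103. Some RefSeq windows lay inside the GENCODE gene, downstream of its annotated start. On the plus strand, the Kif14 window began at 136467598 (gene start 136466343) and the Kif17 window at 138262001 (gene start 138250435). The window of Kif2c, on the minus strand, had its lower bound at 117178723, and the gene starts at 117182639. The windows of Kif4 and Kif27 also lay inside. The counts above include these windows, whose positions refer to the RefSeq start only.

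The mitotic kinesin without a CHR match in its window was Kif18a, whose ratio is uncertain because of the overlap with Mettl15. It had an E2F match at -10, and Kif15 had one at -27. E2F matches were found in 2 of the 10 mitotic kinesins and in 12.3% of the windows of genes past the filter. CCAAT boxes were found in 6 of 10 mitotic and 3 of 9 transport kinesins, beside 38.5% of windows of genes past the filter. The GC box (GGGCGG) was found in 6 of 10 mitotic and 8 of 9 transport kinesins, against 63.3%. Base composition moved with role, since the windows of mitotic kinesins had a median GC content of 60.2% (43.7% to 65.0%) and those of transport kinesins 69.5% (59.3% to 86.7%). Among the 7082 windows of genes past the filter in the GC range of the mitotic kinesins, 24.1% held a CHR match and 5.73% held one within 50 bases of the start. No such share was computed in the GC range of the transport kinesins, so their lack of CHR matches has no background matched in composition. All motif matches here are letters in a window and were not measured as binding.

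**Figure D3:**
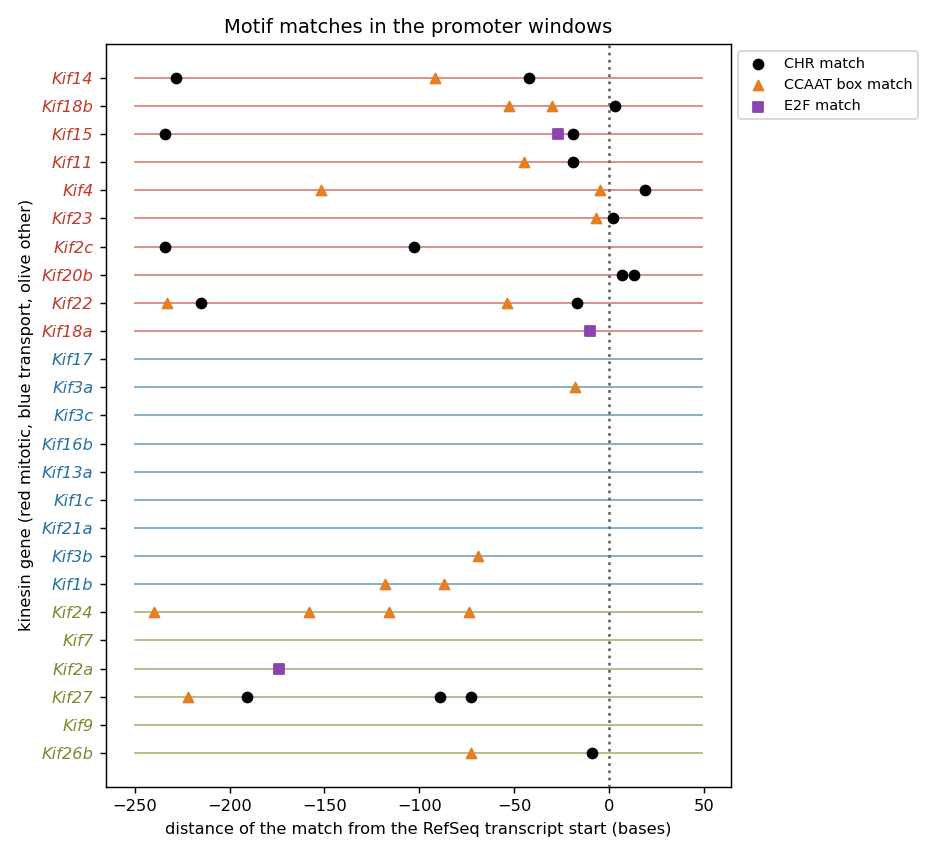
Positions of CHR (circles), CCAAT box (triangles) and E2F (squares) matches in the first RefSeq promoter window of 25 kinesin genes, as the distance in bases from the transcript start (dotted line), with gene names coloured by role and ordered by log2 ratio. CHR matches lie in 9 of the 10 mitotic rows, mostly near the start, and in 0 of the 9 transport rows.

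The transport kinesins had the higher levels per kb of exon in the control, where every one but Kif17 lay above all mitotic kinesins. Kif1c (chromosome 11, 70700548 to 70731964), a kinesin-3 motor of vesicles and integrins, stood at 25264 counts (345 CPM) in the control and 27211 (210 CPM) in the knockdown. Its log2 ratio was -0.71 (-0.74 to -0.69). Kif1b (chromosome 4, 149176319 to 149307693), whose isoforms carry mitochondria, lysosomes and synaptic vesicle precursors, had 17117 and 12804 counts, or 234 and 99.0 CPM. With a ratio of -1.24 (-1.27 to -1.21), it was the lowest of the kinesins and 2.36-fold lower.

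Kinesin-1 heavy chains, which together with light chains carry lysosomes and mitochondria outward, differed by little or in the other direction. Kif5b, the ubiquitous heavy chain, had 190 and 181 CPM, a log2 ratio of -0.072 that turned to 0.16 under total-count scaling. Kif5a, best known from neurons, had 2159 and 6651 counts, or 29.5 and 51.4 CPM, and a ratio of 0.80 (0.73 to 0.87), the highest of the transport kinesins past the filter. Per kb of exon, the level of Kif5a was 0.177 times that of Kif5b in the control and 0.325 times in the knockdown. The light chain genes Klc1, Klc2 and Klc4 had log2 ratios of 0.49, -0.13 and -0.77.

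Subunits of kinesin-2, a heterotrimer of KIF3A with KIF3B or KIF3C and of the accessory protein KAP3, differed in direction. Kif3b had 3658 and 3170 counts, or 49.9 and 24.5 CPM (log2 ratio -1.03, interval -1.10 to -0.96), and total-count scaling placed it within 2-fold, at -0.79. Kif3a had 10.3 and 14.6 CPM (0.50) and Kif3c 42.4 and 56.7 CPM (0.42). Under scaling to reference genes, Kif3a fell to 0.095 and Kif3c to 0.013, little different from the control. Kifap3, the KAP3 gene, was at 0.72. The level of Kif3c per kb of exon was 0.646 times that of Kif3b in the control and 1.76 times in the knockdown. This comparison does not depend on library scaling, but reads of genes overlapping Kif3c on the opposite strand could enter it. For Kif3a against Kif3b the same figures were 0.323 and 0.934. Kif17, a homodimeric kinesin-2, stood at 11 and 188 counts, under the filter, at 9.67-fold higher (log2 interval 2.40 to 4.30). Its exons overlap those of Sh2d5 on the same strand, which had 131 and 200 counts.

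The remaining transport kinesins were within 2-fold. Kif13b, a carrier of membrane cargo such as PIP3-bearing vesicles, had 43.1 and 24.2 CPM (-0.83), and its relative Kif13a, which positions recycling endosomes, 38.8 and 31.8 CPM (-0.29). Kif16b, an early endosome motor with a PX domain, had 64.3 and 52.8 CPM (-0.29). The kinesin-4 pair Kif21a and Kif21b, which slow microtubule growth, differed in direction. Kif21a had 29.4 and 15.2 CPM (-0.95) and Kif21b 38.0 and 47.3 CPM (0.32), although Kif21b was at -0.089 under scaling to reference genes. Summed over the 13 transport kinesins, the level was 1115 CPM in the control and 810 CPM in the knockdown, and 81639 and 104817 in raw counts.

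Of the 6 kinesins outside both roles, 3 passed the filter. Kif24, a kinesin-13 that holds back cilium assembly at the mother centriole, had 583 and 2954 counts, or 7.96 and 22.8 CPM, and a log2 ratio of 1.52 (1.39 to 1.65). Kif2a, a microtubule depolymerase of interphase cells and spindle poles, had 20.97 and 38.5 CPM (0.88), and its exons overlap those of Dimt1 on the opposite strand (764 and 1820 counts). Kif7, the ciliary regulator of Hedgehog signalling, had 117 and 413 counts and, at 1.998-fold higher, lay just under the 2-fold rule. Its exons overlap those of Ticrr, a DNA replication gene on the opposite strand with 72 and 4221 counts (5.05), and their reads cannot be told apart either. Kif9, Kif26b and Kif27 had 10 to 73 counts in each library, and the intervals of Kif26b and Kif27 held 0.

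The make-up of the kinesin transcripts thus differed between the libraries. All kinesins together took 0.109% of control counts and 0.172% of knockdown counts. Mitotic kinesins made up 3.28% of the kinesin counts in the control library (exact Clopper-Pearson 95% interval 3.16% to 3.40%) and 44.9% in the knockdown library (44.7% to 45.1%). These intervals cover counting error within each library only, not variation between cultures. Per kb of exon, mitotic kinesins made up 4.60% and 52.2% of the summed kinesin level, and transport kinesins 91.9% and 43.5%. The length is the union of all annotated exons, which can exceed that of the expressed transcript. Levels per kb therefore compare genes only roughly. In the control library the 10 highest kinesins per kb were all transport kinesins, and the first mitotic one, Kif20a, ranked 14. In the knockdown library 7 of the 10 highest were mitotic. Kif1c led in both libraries, at 47.4 and 28.9 CPM per kb. Kif20a followed it in the knockdown library at 25.9 CPM per kb, from 1.44 in the control library. The ratio of Kif20a to Kif1c per kb was 0.0305 in the control and 0.895 in the knockdown.

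**Figure D4:**
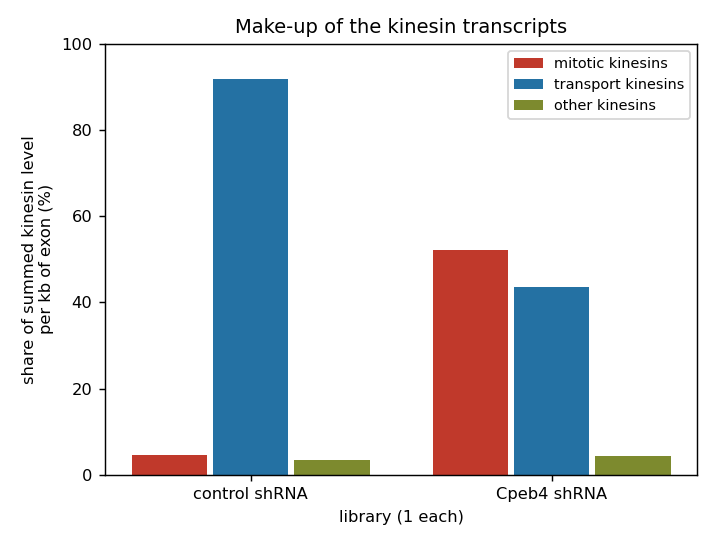
Share of the summed kinesin level per kb of exon, in percent, held by mitotic, transport and other kinesins in each library. Mitotic kinesins hold 4.60% in the control and 52.2% in the knockdown library, and transport kinesins 91.9% and 43.5%.

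Lists of related genes were set beside the kinesins. Among 8 motor relatives whose symbols fall outside the rule, Cenpe, the kinesin-7 gene of the kinetochore, had 387 and 13136 counts and a log2 ratio of 4.26, within the range of the mitotic kinesins. Kifc1, the minus-end-directed spindle motor, had 325 and 5875 counts (3.36). Its close copy Kifc5b had 175 and 2944 (3.25), and reads of this pair may be divided between them. At the other end were Kifc2 (-0.72) and Kifc3 (-0.70). Between them lay Stard9 (0.88, 6740 and 21909 counts), Kifap3 (0.72) and Kifbp (-0.48). Of the 8 relatives, 3 were thus 2-fold or more higher and 0 lower, beside 14.6% and 11.8% of all genes past the filter.

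The mitotic partners of these motors, 30 genes past the filter, had a median of 4.03. Of them, 28 were 2-fold or more higher and 0 lower, beside 14.6% and 11.8% of all genes past the filter. The kinetochore genes Ndc80 (5.49) and Nuf2 (5.48) were highest, and the microtubule end-binding gene Mapre1 (-0.017) and the spindle pole gene Numa1 (0.88) lowest. Among direct partners of mitotic kinesins, Prc1 was at 4.63, Aurkb at 4.90, Incenp at 2.61 and Tpx2 at 3.72. Of 24 other proliferation genes, 21 were 2-fold or more higher and 0 lower, beside the same 14.6% and 11.8%, and the median was 3.79. The repressor gene E2f7 (5.16) and Mki67 (5.03) were highest, and Ccne1 (0.38) and Cdt1 (0.77) lowest. The median of the mitotic kinesins thus lay above the medians of both lists, inside the range of either.

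Genes that serve cargo transport were set beside the 8900 of 12086 genes past the filter that lay within 2-fold. Of 22 light chains and cargo adaptors past the filter, 3 were 2-fold or more lower and 0 higher, and the median was -0.56. Over all genes past the filter 11.8% were lower and 14.6% higher, so the share of adaptors that was lower is near the background. Kidins220, which encodes a transmembrane cargo bound by kinesin-1 light chains, had 873 and 243 CPM (-1.84). Plekhm1, a lysosomal adaptor that osteoclasts need to resorb bone, had 701 and 212 CPM (-1.73). Borcs5 (0.63) and Klc1 (0.49) were highest. Arl8b, the small GTPase gene that couples lysosomes to kinesin-1 and kinesin-3, was at -0.84, and its kinesin-1 adaptor gene Plekhm2 at -0.92. Of 28 genes of dynein, the opposing minus-end motor, and of dynactin and their adaptors, 2 were 2-fold or more lower and 1 higher, beside the same 11.8% and 14.6%, and the median was -0.27. Spdl1 (1.32), the adaptor that brings dynein to kinetochores, was the highest and Hook2 (0.48) the next. Dynlt3 (-1.34) and Dctn3 (-1.03) were lowest, and the dynein heavy chain gene Dync1h1 was at -0.13.

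**Figure D5:**
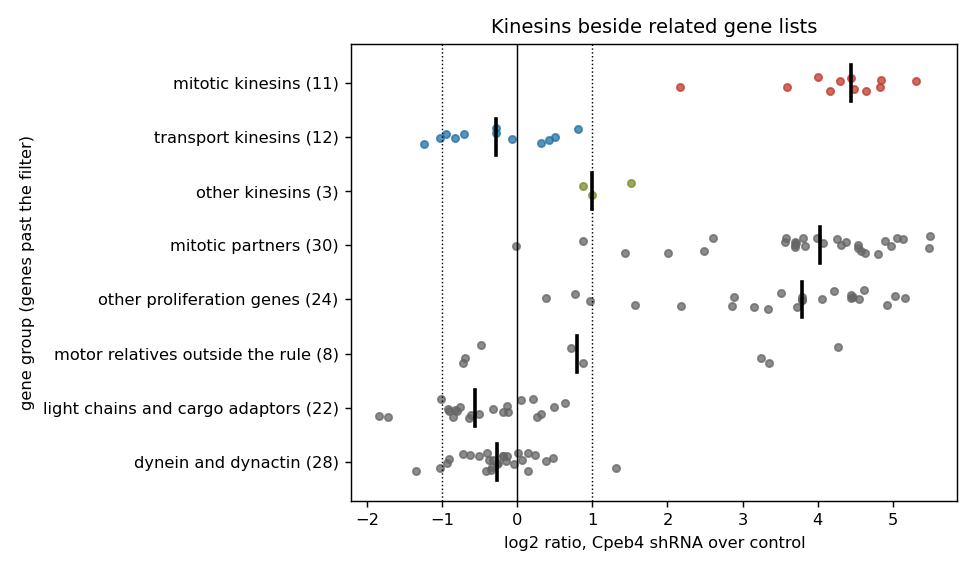
Log2 ratio of the knockdown library over the control library for the kinesins by role and for 5 lists of related genes (points, genes past the filter, with their number in parentheses), with the median as a black bar and 2-fold as dotted lines. The medians of mitotic kinesins, mitotic partners and other proliferation genes are 4.45, 4.03 and 3.79, and those of transport kinesins, cargo adaptors and dynein genes -0.29, -0.56 and -0.27.

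Other scalings turned the sign of Kif5b and Kif21b among the kinesins past the filter. The 20 reference genes used for 1 of these scalings themselves differed between the libraries. Under TMM they ran from -1.96 (Tfrc) to 1.93 (Tubb5), with 3 at least 2-fold higher and 1 lower. Every log2 ratio shifted by 0.23 with total-count scaling and by -0.41 with scaling to these reference genes. Kinesins at least 2-fold higher and lower numbered 15 and 1 under the former, beside 20.6% and 8.6% of all genes past the filter. Under the latter they numbered 12 and 5, beside 8.75% and 21.8%, so that 5 of 26 lower is near the background. With TMM, a 1.5-fold rule gave 15 higher and 5 lower kinesins (26.4% and 22.1% of genes past the filter), and a 4-fold rule 0 lower (3.52%). Among all genes past the filter, the share of higher among those past 2-fold was 55.4% under TMM, 70.5% under total-count and 28.6% under reference-gene scaling.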

How the data were processed

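RNA sequencing of 2 libraries was deposited as 1 table of whole-number counts per gene, with a column for each library. Per the submitters' processing notes, the authors aligned the reads with HISAT2 to mm10. Its version, how reads were counted, with which annotation and whether by strand, are not stated in the sources used. Genes at 4 counts outnumbered those at 3 or 5 in the control library (585, 444 and 286), so the deposited counts may be estimates, and counting intervals are then approximate.

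Counts were scaled by TMM in edgeR 4.0.16 (R 4.3.3) and given as CPM. Each log2 ratio (Cpeb4 shRNA over control) had an exact Clopper-Pearson 95% interval (SciPy 1.17.1), which covers counting error only. With 1 library per group no test was run, and differences were described by a 2-fold rule of size. The filter kept genes whose mean over both libraries reached 1 CPM. Coordinates, overlaps and exon lengths (union of all annotated exons) came from GENCODE M21 for GRCm38, which held 18935 of the 18987 identifiers, and promoter windows from RefSeq, whose starts can differ from GENCODE gene bounds. Alternatives were total-count, DESeq2 1.42.0 and reference-gene scaling, no filter or 10 CPM, 1.5-fold and 4-fold rules, and a pseudocount of 0.5 CPM. Named genes were all kinesins and the 2 highest and 2 lowest of each related list, with a few partners chosen after their values were seen. The members and lists were chosen with earlier results of these data known. The TMM scaling, log2 ratios and their intervals were tested on simulated counts in which most genes were unchanged, unlike in these data. The motif searches, overlaps and shares were not tested in this way.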

Additional observations from a re-analysis of the deposited data

How the results depend on the processing

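No paired analysis was possible because there is 1 library per group. All 11 mitotic kinesins stayed at least 2-fold higher under each scaling tried, since the lowest, Kif18a, was at 1.76 with reference-gene scaling. The median of the mitotic kinesins was 4.68 with total-count and 4.04 with reference-gene scaling, that of the transport kinesins -0.053 and -0.69, and Cpeb4 -1.49 and -2.13. With Kif2a counted as mitotic, chosen after seeing the data, the mitotic median was 4.37. The median of the other kinesins was 0.40 without a filter, which adds 3 genes of few counts, and 0.59 with reference-gene scaling. Kinesins at least 2-fold lower numbered 1 with total-count and 5 with reference-gene scaling, 5 by a 1.5-fold and 0 by a 4-fold rule, while those higher numbered 11 to 15 over all alternatives. Kif5b turned to 0.16 with total-count and Kif21b to -0.089 with reference-gene scaling. DESeq2 size factors left all 26 ratios within their counting intervals, and a pseudocount of 0.5 CPM moved 5 beyond theirs. A count of 3, the limit that a count of 0 allows, came to 0.041 CPM (control) and 0.023 CPM (Cpeb4 shRNA).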

Other observations

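CPEB proteins bind cytoplasmic polyadenylation elements near the 3′ end of messenger RNAs, and the kinesin transcripts were searched for the letters of such elements. The last 200 bases of 1 GENCODE M21 transcript per gene, the one with the longest coding part, were searched on the sense strand for TTTTAT or TTTTAAT, where the part after the stop codon was at least that long. A match was present in 4 of 9 mitotic kinesins (Kif2c, Kif11, Kif14 and Kif18a), 2 of 11 transport kinesins (Kif5b and Kif21a) and 2 of 6 others (Kif26b and Kif27). The share over 9062 genes past the filter was 29.96%. These counts are small, and the mitotic and transport shares lie on either side of that background. The sites of Kif14 and Kif2c are shown as the mitotic members whose transcripts also have an AATAAA hexamer close to the end, with the match in capitals.
Kif14: atgaatggtaTTTTATgatgtaaagt
Kif2c: gcactcatgaTTTTATactttcagaa
The match begins 139 bases before the transcript end in Kif14 and 134 in Kif2c. The last AATAAA begins 18 and 22 bases before that end, so neither match lies next to the hexamer. Whether CPEB4 binds at these letters was not tested. Kif11, with a ratio of 4.64, and Kif5b, with -0.072, both had a match, and Kif4, Kif15, Kif18b, Kif20a and Kif23, all above 4, had none in this window.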
